A study of Mus musculus with 2 samples.

Results

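Lymphocyte lineage transcription factors are the DNA-binding proteins that set which kind of T cell, natural killer (NK) cell or innate lymphoid cell (ILC) a precursor becomes. The 10 described here, of 27998 genes in the count matrices, are Tbx21, Eomes, Runx3, Zbtb16, Maf, Gata3, Tcf7, Bcl11b, Tox and Zfp683, taken by gene symbol, each with 1 row in both matrices. The cells came from the liver of C57BL/6 mice 7 to 10 weeks old and were sorted by 2 gates, each the source of 1 droplet single-cell RNA library. The LSM gate took CD45+Lin-Sca-1+Mac-1+ cells, and the other took CD45+Lin-CD122+CD49a+ cells. CD122 is the interleukin-2 receptor beta chain and CD49a is integrin alpha 1, surface proteins known from liver ILC1. With 1 library per gate no difference has a replicate check, and all intervals below are exact 95% intervals that cover counting error only. For a count of 0, the share of cells with a UMI that it allows (3 counts) and a fold written "at least" (0 counted as 3 UMIs) are fixed-floor values, not interval limits.

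In textbook accounts, precursors of T cells and ILCs first gain TCF1 (from Tcf7), GATA3 and TOX, T cell commitment follows with BCL11B, and the T-box proteins T-bet (from Tbx21) and EOMES then set the interferon-gamma and cytotoxic programmes. In mouse liver, EOMES is known to separate conventional NK cells from ILC1, which rely on T-bet and Hobit (from Zfp683). PLZF (from Zbtb16) is known to direct natural killer T (NKT) cells and other innate-like T cells and to mark an ILC precursor, and c-MAF (from Maf) to drive interleukin-4 and other cytokine genes in T cell subsets.

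Barcodes with at least 500 detected genes were kept, 3074 in the LSM library at a median of 5100.5 unique molecular identifiers (UMIs) and 1257 in the CD122+CD49a+ library at a median of 1461. The libraries shared 3 barcodes. Clusters were made without the 10 genes. Lymphocyte clusters held 82 LSM cells and 759 CD122+CD49a+ cells, and Cd34 progenitor-like clusters held 666 LSM cells. Although the CD122+CD49a+ gate is labelled lineage-negative, a CD3 UMI (Cd3d, Cd3e or Cd3g) was present in 94.2% of the larger and 94.1% of the smaller of its main lymphocyte clusters, and the ILC1 name that the marker rule gave to the larger is not used here. Cells were therefore classed by transcripts. CD8 cells had a UMI of Cd8a or Cd8b1 (49 LSM, 126 CD122+CD49a+). CD8-negative CD3 cells had a CD3 UMI and no CD8 UMI (32 LSM, 592 CD122+CD49a+). CD3-negative adaptor cells had neither, but a UMI of Tyrobp or Fcer1g, signalling adaptors of NK cells and other innate cells (0 LSM, 26 CD122+CD49a+). The remaining 1 LSM and 15 CD122+CD49a+ lymphocytes had none of these UMIs. At these depths a missing UMI is not a missing transcript, so each class can hold cells of another.

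Of the 10 genes, Runx3 and Maf had clear levels outside lymphocytes as well. The others had few or no UMIs there, with some exceptions in the LSM library. These were Tox, Gata3 and Tcf7 in progenitor-like cells, Tcf7 in a dendritic cell-like cluster and Zbtb16 in monocyte-like cells. At least 1 of them had a UMI in 75.2% (72.0 to 78.3) of CD122+CD49a+ lymphocytes and in 21.5% (18.0 to 25.4) of the other CD122+CD49a+ cells, whose median depth was higher, 2191.5 UMIs against 1281. In the LSM library the shares were 64.0% (60.2 to 67.6) of Cd34 progenitor-like cells, 70.7% (59.6 to 80.3) of lymphocytes and 25.2% (23.4 to 27.0) of the other cells. Per lymphocyte the counts were low. Between 1.10 and 1.78 UMIs were found per positive CD122+CD49a+ lymphocyte, and the median lymphocyte showed 1 of the 10 genes.

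**Figure D1:**
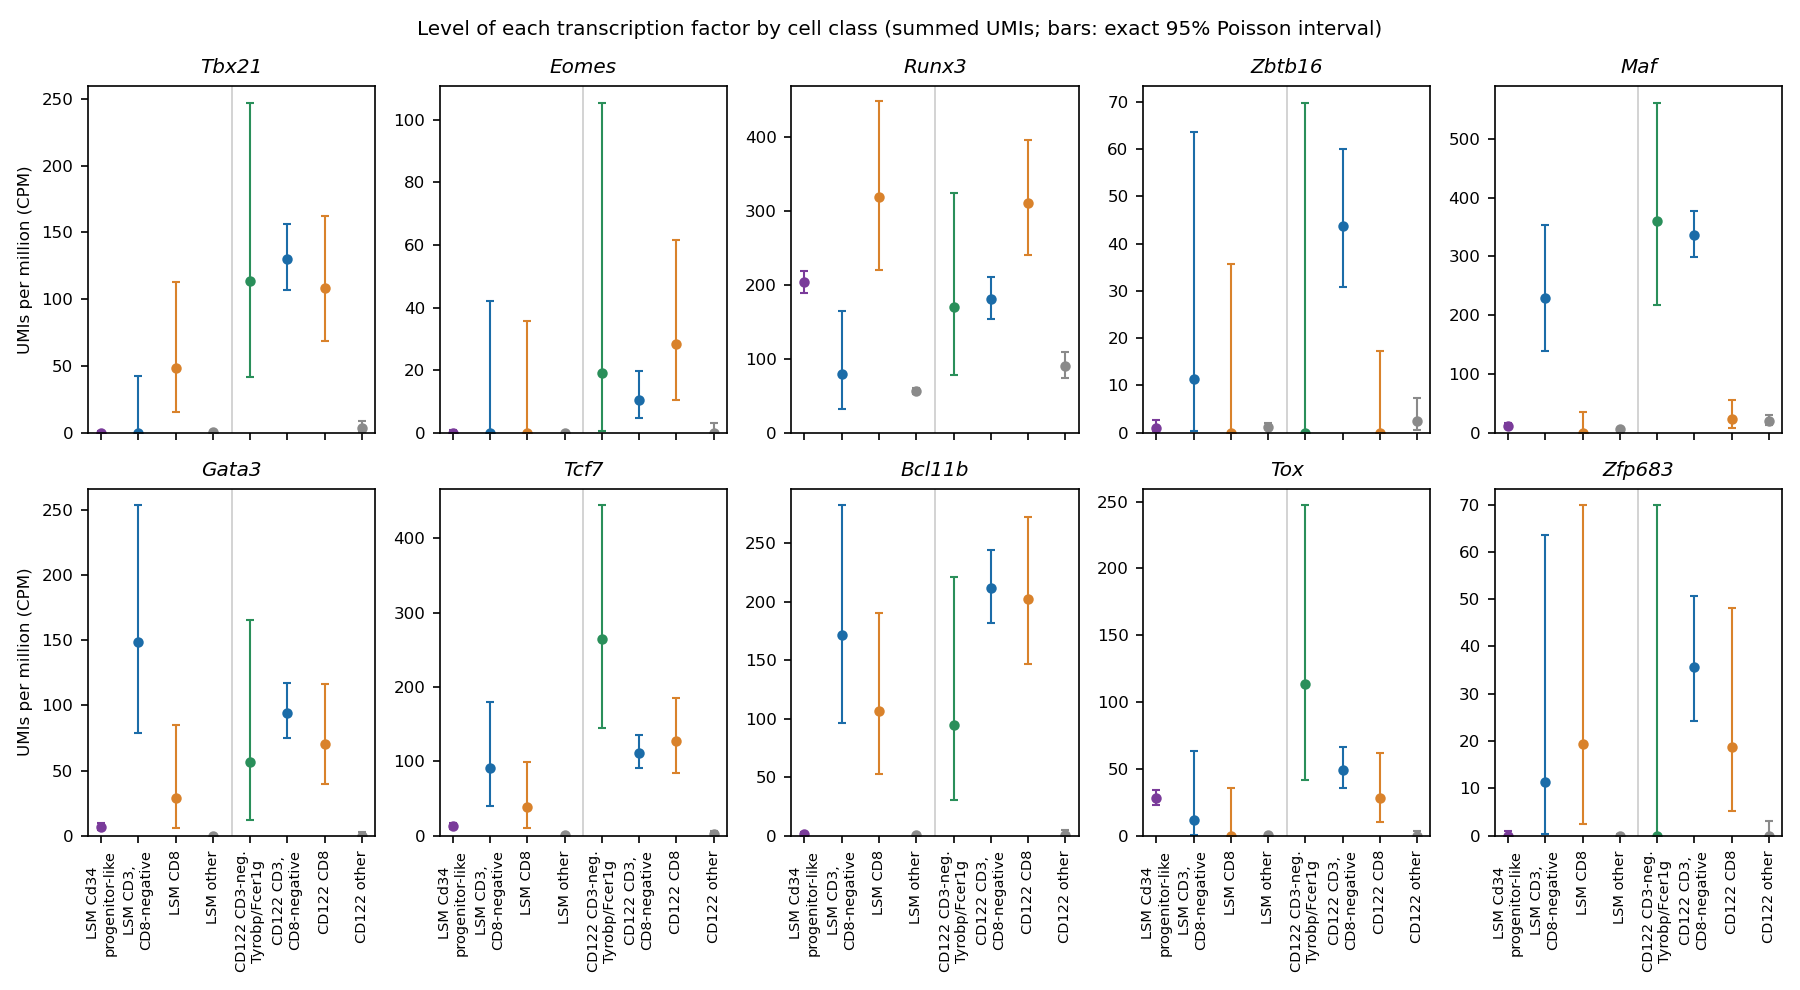
Level of each gene, in counts per 1000000 UMIs of the class (CPM, y axis, own scale per gene), in 4 LSM and 4 CD122+CD49a+ cell classes (x axis). Points are summed counts of 1 library with exact 95% Poisson intervals; Maf is at 337 CPM in CD122+CD49a+ CD8-negative CD3 cells and 23.5 CPM in CD8 cells, and Runx3 runs the other way, at 180 and 310 CPM.

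Levels are given as summed UMIs of a class scaled to 1000000 UMIs (CPM). The T-box genes and Runx3 come first, as regulators of cytotoxic and interferon-gamma programmes. The promoter windows of these 3 genes, the 250 bases before the RefSeq start (GRCm38.p6), are shown because Tbx21 and Eomes divide liver innate lymphocytes in textbook accounts and Runx3 was found in every cell class. Capitals mark matches to the motifs searched, on either strand.
Tbx21, chr11:97115332-97115581, minus strand: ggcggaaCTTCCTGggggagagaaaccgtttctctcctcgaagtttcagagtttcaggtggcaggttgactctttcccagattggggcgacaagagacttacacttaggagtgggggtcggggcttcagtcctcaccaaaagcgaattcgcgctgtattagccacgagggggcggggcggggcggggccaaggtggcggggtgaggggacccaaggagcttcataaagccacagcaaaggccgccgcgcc
Eomes, chr9:118477939-118478188, plus strand: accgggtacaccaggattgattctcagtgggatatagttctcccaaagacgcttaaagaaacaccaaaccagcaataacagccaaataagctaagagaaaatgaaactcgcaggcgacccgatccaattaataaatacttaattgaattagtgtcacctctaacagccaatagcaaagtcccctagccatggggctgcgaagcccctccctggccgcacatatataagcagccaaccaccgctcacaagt
Runx3, distal start, chr4:135120395-135120644, plus strand: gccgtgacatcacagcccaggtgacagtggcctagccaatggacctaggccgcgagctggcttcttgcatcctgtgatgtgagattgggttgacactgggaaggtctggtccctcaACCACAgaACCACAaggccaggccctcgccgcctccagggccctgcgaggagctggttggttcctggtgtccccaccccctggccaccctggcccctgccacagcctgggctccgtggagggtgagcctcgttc
The letters searched on both strands were TGTGGT for RUNX factors, AGATAA for factors of the Gata3 family, GGTGTGA for T-box factors, ATCAAAG for factors of the Tcf7 family and CAGGAAG for ETS factors. No match overlapped another. RefSeq has 2 windows for Runx3. The proximal one (chr4:135152295-135152544) held none of the 5 motifs. The distal window held 2 RUNX matches, both on the other strand (ACCACA), beginning 134 and 126 bases before the start. The Tbx21 window held 1 ETS match on the other strand (CTTCCTG), beginning 243 bases before the start, and the Eomes window held none of the 5 motifs. Among 32817 RefSeq windows of that length, 14.0% held the RUNX letters and 10.8% the ETS letters (9.99%, 3.33% and 3.21% for the others in the order given), so a match describes the letters of the window and marks no binding site.

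Tbx21 (chr11:97098071-97115331 in GRCm38, protein coding, as are all 10) was spread over every CD122+CD49a+ lymphocyte class. It had 114 CPM (41.7 to 247) in CD3-negative adaptor cells, 130 CPM (107 to 156) in CD8-negative CD3 cells and 108 CPM (68.6 to 162) in CD8 cells, and these intervals overlap. In the other CD122+CD49a+ cells it had 3.33 CPM (4 UMIs). LSM lymphocytes held 5 Tbx21 UMIs, all in CD8 cells (48.3 CPM, 15.7 to 113), and none was found in the 32 CD8-negative CD3 cells or the 666 progenitor-like cells.

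Eomes (chr9:118478212-118486132) was rare. The 759 CD122+CD49a+ lymphocytes held 16 UMIs in 9 cells (1.19%, 0.544 to 2.24), and the 498 other cells of that library held none. By class there were 1 UMI in CD3-negative adaptor cells, 9 in 4 CD8-negative CD3 cells and 6 in 4 CD8 cells. By cluster there were 1 UMI in the larger main cluster, 9 in the smaller and 6 in 2 of the 23 cells of the cycling lymphocyte cluster. Among all CD3 cells, Eomes had 37.3 CPM (18.6 to 66.8) where Tyrobp or Fcer1g was also found and 5.11 CPM (1.39 to 13.1) where neither was, a contrast between 11 and 4 UMIs. No LSM cell had an Eomes UMI, which for the 82 lymphocytes allows a share with a UMI of up to 3.66% and sets no limit on cells with the transcript.

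Runx3 (chr4:135120652-135177990), which represses Cd4 in CD8 T cells and serves cytotoxic lymphocytes, was found in all 20 clusters of both libraries. In CD122+CD49a+ cells it had 170 CPM (77.9 to 323) in CD3-negative adaptor cells, 180 CPM (153 to 211) in CD8-negative CD3 cells, 310 CPM (240 to 395) in CD8 cells and 89.9 CPM (73.7 to 109) in the other cells. In LSM cells it had 203 CPM (189 to 218) in progenitor-like cells, 80.0 CPM (32.1 to 165) in CD8-negative CD3 cells, 319 CPM (219 to 448) in CD8 cells and 55.8 CPM (51.7 to 60.2) in the other cells. In each library, then, CD8 cells were above CD8-negative CD3 cells with intervals that do not overlap. Those CD8-negative CD3 cells of the CD122+CD49a+ library in which a Cd4 UMI was found (61 cells) had 87.8 CPM (37.9 to 173), against 191 CPM (162 to 224) in those without (531 cells).

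Zbtb16 (chr9:48654297-48836222) had all 40 of its CD122+CD49a+ lymphocyte UMIs in the larger main cluster. CD8-negative CD3 cells held 38 UMIs in 33 cells (43.7 CPM, 30.9 to 59.9). None was found in the 126 CD8 cells (0 to 17.4 CPM), nor in the 26 CD3-negative adaptor cells, which allows up to 11.5% of them. The LSM lymphocytes held 1 Zbtb16 UMI. Outside lymphocytes, the LSM monocyte-like cluster marked by Ace held 15 Zbtb16 UMIs (17.9 CPM, 4.49% of 334 cells). The CD122+CD49a+ cluster marked by Ace held 2 UMIs in 38 cells (38.9 CPM). That is under the floor of 3 counts, so its level is not compared with others.

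Maf (chr8:115682942-115707794) had the same direction as Zbtb16 between the CD3 classes of the CD122+CD49a+ library. It had 337 CPM (299 to 377; 28.0% of cells) in CD8-negative CD3 cells and 23.5 CPM (7.64 to 54.9; 3.17% of cells) in CD8 cells, close to the 19.98 CPM (12.8 to 29.7; 3.41%) of the other cells. In CD3-negative adaptor cells, where Zbtb16 was not found, Maf had 360 CPM (217 to 562; 10 of 26 cells). In LSM lymphocytes all 20 Maf UMIs lay in 12 of the 32 CD8-negative CD3 cells (228 CPM, 140 to 353) and none in the 49 CD8 cells. Maf was also high in the Kupffer cell-like LSM cluster, at 411 CPM in 62.2% of 45 cells. None of the 8 Kupffer cell markers had a UMI in any CD122+CD49a+ lymphocyte. In LSM CD8-negative CD3 cells 3 of 8 did (C1qa, C1qb and C1qc, 7 UMIs, 80.0 CPM in sum, all in cells with Maf), against 0 of 8 in LSM CD8 cells, with Clec4f, Vsig4, Cd5l, Timd4 and Marco at 0, and their part in the LSM value was not tested.

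Gata3 (chr2:9857078-9890034), the factor of T helper 2 cells and ILC2 that also serves early T cells, had overlapping intervals across the CD122+CD49a+ classes, with 56.8 CPM (11.7 to 166) in CD3-negative adaptor cells, 94.2 CPM (74.9 to 117) in CD8-negative CD3 cells and 70.6 CPM (39.5 to 116) in CD8 cells. In LSM cells it had 6.50 CPM (24 UMIs in 22 cells) in progenitor-like cells, 148 CPM (79.1 to 254) in CD8-negative CD3 cells and 29.0 CPM (5.98 to 84.7) in CD8 cells. No Gata3 UMI was found in the 2326 other LSM cells, which allows up to 0.129% of them, or in the 498 other CD122+CD49a+ cells, which allows up to 0.602%. Its reads may be shared with the overlapping gene 9230102O04Rik on the same strand.

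Tcf7 (chr11:52252371-52283014), a Notch target at the start of T cell development and a marker of long-lived memory cells, likewise had overlapping intervals in the CD3 classes of the CD122+CD49a+ library. It had 265 CPM (145 to 445) in CD3-negative adaptor cells, 111 CPM (90.4 to 136) in CD8-negative CD3 cells and 127 CPM (83.7 to 185) in CD8 cells, with 1.66 CPM in the other cells. In the LSM library it had 12.2 CPM in progenitor-like cells, 91.4 CPM (39.5 to 180) in CD8-negative CD3 cells, 38.7 CPM (10.5 to 99.0) in CD8 cells and 1.38 CPM in the others. Of the 17 Tcf7 UMIs in these other LSM cells, 15 lay in the dendritic cell-like cluster marked by Ccr7 and Fscn1 (6.98% of 172 cells). Tcf7 overlaps Gm26551 on the same strand, and reads of the pair could not be told apart.

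Bcl11b (chr12:107910403-108003602), the gene of T cell commitment, was found in every lymphocyte class. In the CD122+CD49a+ library it had 94.7 CPM (30.7 to 221) in CD3-negative adaptor cells, 211 CPM (182 to 244) in CD8-negative CD3 cells and 202 CPM (146 to 272) in CD8 cells. In the LSM library it had 171 CPM (95.9 to 283) in CD8-negative CD3 cells and 106 CPM (53.1 to 190) in CD8 cells. The other cells held 1 UMI in each library, and progenitor-like cells held 4 UMIs in 1 cell.

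Tox (chr4:6686353-6991557), which serves CD4 T cell, NK cell and ILC development, had 114 CPM (41.7 to 247) in CD3-negative adaptor cells, 49.4 CPM (35.8 to 66.5) in CD8-negative CD3 cells and 28.2 CPM (10.4 to 61.4) in CD8 cells of the CD122+CD49a+ library. LSM lymphocytes had 1 Tox UMI, and LSM progenitor-like cells had 104 UMIs in 91 cells (28.2 CPM, 23.0 to 34.1). Zfp683 (chr4:134053838-134058996), whose product Hobit serves tissue-resident lymphocytes, had 35.6 CPM (24.2 to 50.6) in CD8-negative CD3 cells and 18.8 CPM (5.13 to 48.2) in CD8 cells of the CD122+CD49a+ library, and was not found in the 26 CD3-negative adaptor cells. It had 3 UMIs in LSM lymphocytes and was at 0 in progenitor-like cells and in the other cells of both libraries.

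**Figure D2:**
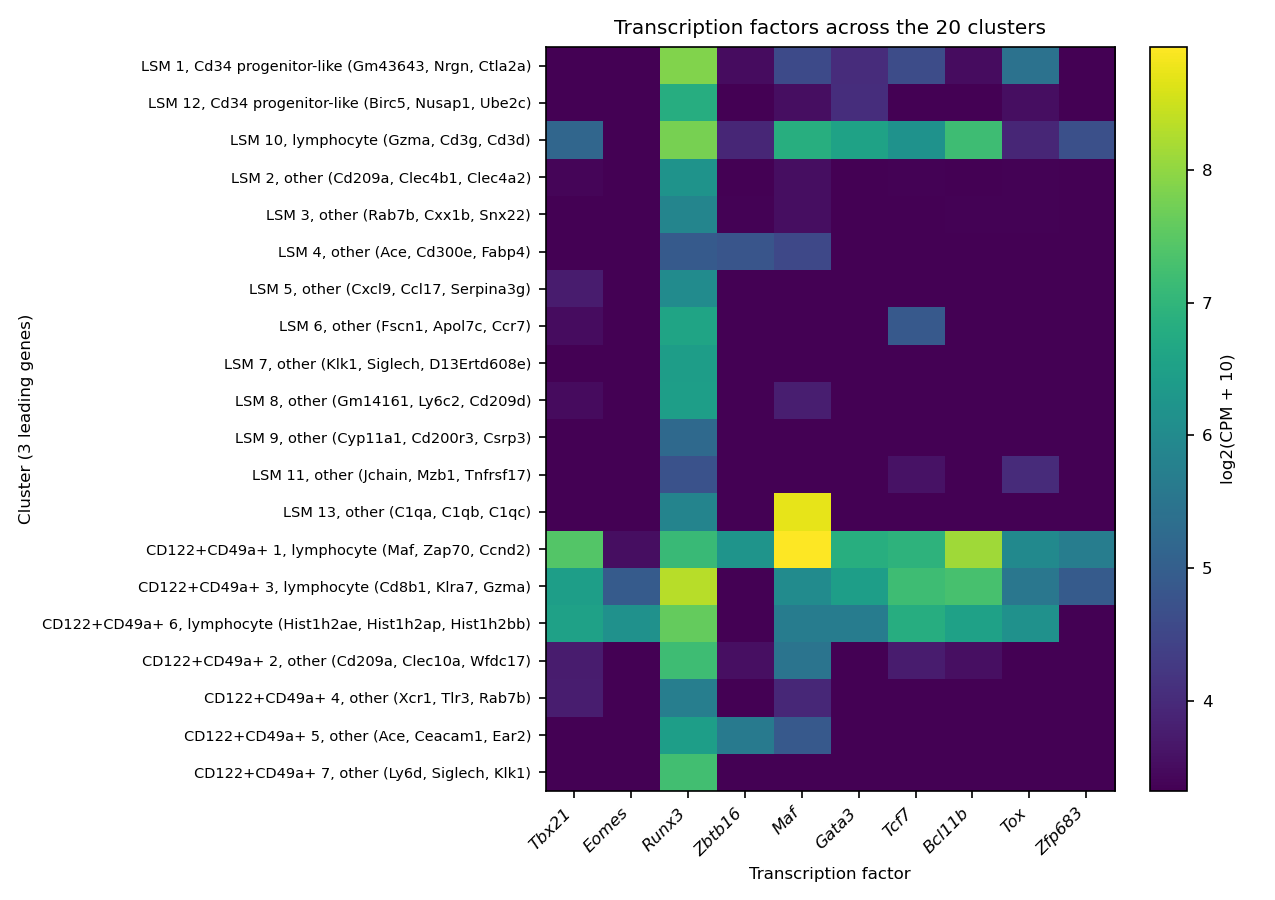
Level of each gene as log2(CPM + 10), colour scale, in the 7 CD122+CD49a+ and 13 LSM clusters (rows, with class and 3 leading genes; clusters were made without the 10 genes). Runx3 is above 0 in every row, Zbtb16 is brightest in the larger CD122+CD49a+ lymphocyte cluster (64.8 CPM), and Maf is bright there (477 CPM) and in the Kupffer cell-like LSM cluster (411 CPM).

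The first comparison set CD8-negative CD3 cells over CD8 cells within the CD122+CD49a+ library. Maf was 14.3-fold higher (6.06 to 44.4) and Zbtb16 at least 3.09-fold higher, counting the 0 UMIs of CD8 cells as 3 (exact lower limit 2.40). Runx3 was lower without passing 2-fold, with a ratio of 0.581 (0.433 to 0.787). Thus 2 of the 9 genes with 20 UMIs or more were past 2-fold, both upward, against 19.5% of all 5624 genes so compared (17.1% higher, 2.44% lower). The count of genes is close to that share and is no result about the 10 genes as a group. Zbtb16 reached 20 UMIs here through CD8-negative CD3 cells alone. Genes can do so in the later contrasts too, so counts past 2-fold are given there as a description. Ratios of Tbx21 (1.20, 0.761 to 1.97), Tcf7 (0.877, 0.568 to 1.40), Bcl11b (1.05, 0.746 to 1.49) and Gata3 (1.34, 0.764 to 2.49) have intervals that span 1. Eomes was too sparse to compare. The median log2 ratio of all genes compared was 0.29 in CPM and 0.11 with TMM scaling.

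At an equal depth of 1000 UMIs, reached by 471 CD8-negative CD3 cells and 113 CD8 cells, Maf was found in 24.0% of CD8-negative CD3 cells, in 2.65% of CD8 cells and in 3.02% of the other CD122+CD49a+ cells. Zbtb16 was found in 3.61% of CD8-negative CD3 cells, in 0 of 113 CD8 cells, which allows up to 2.65%, and in 0.696% of the other cells. The exact intervals of both CD3 classes overlap for Zbtb16, 2.12 to 5.72% in CD8-negative CD3 cells and 0 to 3.21% in CD8 cells. The other cells include monocyte-like cells with Zbtb16 and Maf UMIs, so their shares are not a background rate. Runx3 was found in 15.3% of CD8-negative CD3 cells, in 27.4% of CD8 cells and in 8.35% of the other cells. Unthinned, the shares of CD8-negative CD3 and CD8 cells were 28.0% and 3.17% for Maf, 5.57% and 0% for Zbtb16, and 21.1% and 32.5% for Runx3. When CD3 and CD8 calls needed at least 2 UMIs of the defining genes, the bound for Zbtb16 was 0.87 on the log2 scale and no longer past 2-fold.

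In the same contrast of the LSM library, with 32 over 49 cells, Maf was at least 7.88-fold higher (20 UMIs against 0) and Runx3 was 3.99-fold lower (1.73 to 10.7). Past 2-fold were 14.1% of 1129 genes (6.47% higher, 7.62% lower). Maf reached the minimum of 20 UMIs exactly, and through CD8-negative CD3 cells alone, so no count over the 10 genes is read from this contrast. Bcl11b, the third gene with enough UMIs, had a ratio of 1.61 (0.692 to 3.88). Gata3 had 13 UMIs in CD8-negative CD3 cells and 3 in CD8 cells, under the minimum.

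**Figure D3:**
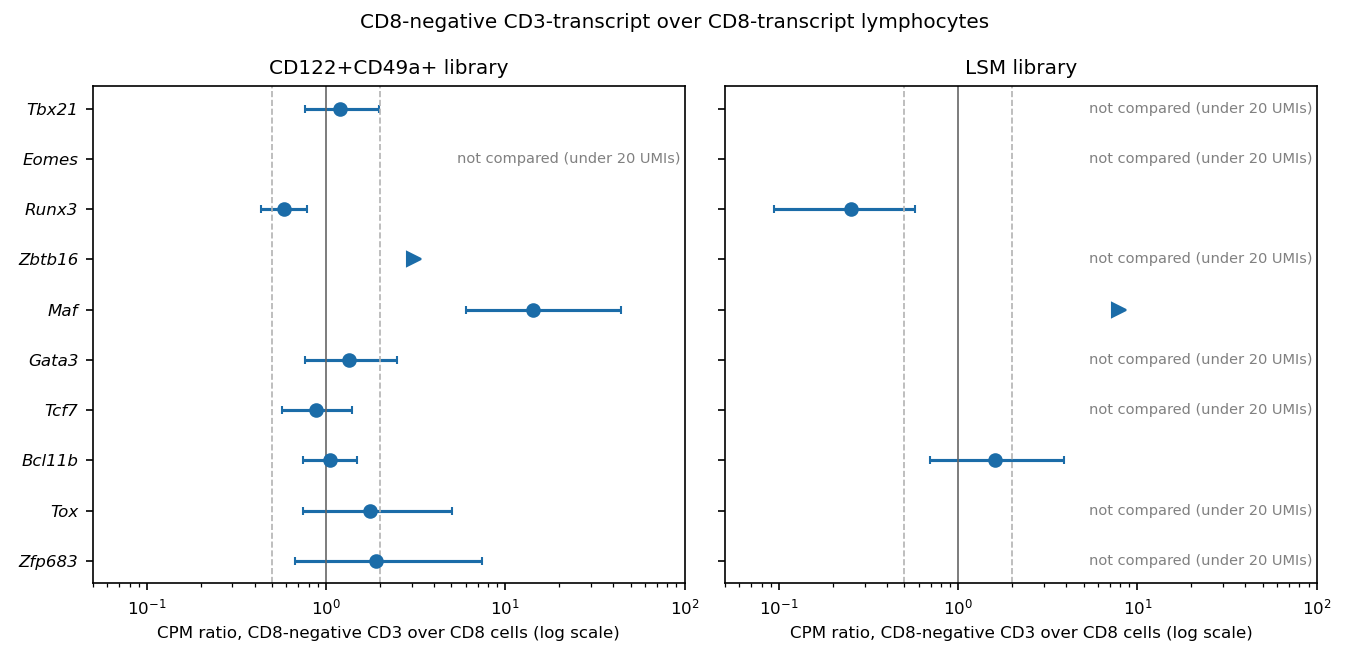
Ratio of CPM in CD8-negative CD3 cells over CD8 cells (x axis, log scale) for each gene, in the CD122+CD49a+ library (left) and the LSM library (right). Bars are exact 95% intervals, triangles are lower bounds against 0 counts, dashed lines are 2-fold; Maf lies above 2-fold in both libraries and Runx3 below 1 in both.

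Genes that went with CD8-negative CD3 cells of the CD122+CD49a+ library were read from ranked genes and from gene lists. The 8 genes most above CD8 cells were Ckb, Podnl1, Asb2, Klrb1f, Adam19, Cd40lg, Il4 and Rin3. Il4, the cytokine gene known as a target of c-MAF, had 97 UMIs (111 CPM) against 0, at least 7.90-fold. Cd40lg, the CD40 ligand of helper T cells, had 159 CPM against 18.8 CPM, 8.43-fold (3.22 to 31.4). Those most below, after the defining Cd8b1 and Cd8a, were Ccl4, Lgals3, S100a4, Gzma, Sidt1 and Nubp1. Gzma, the granzyme of cytotoxic cells, had 809 CPM against 2968 CPM, 3.67-fold lower (3.29 to 4.09).

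The list counts of this contrast stand beside 17.1% of all genes higher and 2.44% lower. Of 8 genes linked to PLZF in innate-like T cells, 4 were past 2-fold upward (Icos, Il4, Klrb1c and Cd4) and 2 downward (Il18r1 and Slamf6), with a median log2 ratio of 1.18 against 0.29 for all genes. Cd4 is not independent of a split by CD8 transcripts, since CD4 and CD8 mark separate T cell lineages. Klrb1c, which encodes NK1.1, had 141 CPM against 32.9 CPM, 4.29-fold (2.02 to 10.9). Of 6 genes linked to TCF1 in memory and recirculating cells, 1 was higher (Lef1) and 2 lower (S1pr1 and Klf2), median -0.79. S1pr1, the receptor for leaving tissue, had 42.5 CPM against 98.8 CPM, 2.32-fold lower (1.29 to 4.08).

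Of 8 T-box linked effector genes, 3 were higher (Il2rb, Il12rb2 and Fasl) and 2 lower (Ccl5 and Il18rap), median 0.37. Of 6 residency genes, 2 were higher (Itga1 and P2rx7), median 0.32. Of 17 other lymphocyte transcription factors, 3 were higher (Lef1, Satb1 and Runx1) and 2 lower (Klf2 and Zeb2), median 0.36. Runx1, a paralog of Runx3, had 165 CPM in CD8-negative CD3 cells against 51.7 CPM in CD8 cells, 3.20-fold higher (1.73 to 6.55), the opposite direction to Runx3.

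The larger over the smaller main CD122+CD49a+ lymphocyte cluster is given as a description, since clusters are built from expression. Their cells are largely those of the CD8 contrast, so this is no separate evidence. The larger (465 cells) was led by Zap70, Ccnd2 and Cxcr6 beside Maf, and the smaller (271 cells) by Cd8b1, Klra7 and Gzma. Maf had 477 CPM against 55.0 CPM, 8.67-fold higher (5.71 to 13.7), and Zbtb16 64.8 CPM against 0, at least 9.43-fold higher. Runx3 had 130 CPM against 309 CPM, 2.39-fold lower (1.80 to 3.19). Tbx21 had 162 CPM against 77.9 CPM, 2.08-fold higher (1.40 to 3.17), and Zfp683 42.2 CPM against 20.6 CPM, 2.04-fold higher (0.928 to 4.96). Thus 5 of 9 genes were past 2-fold, against 18.5% of 5516 genes (15.4% higher, 3.15% lower), and with TMM scaling 3 of 9, as Tbx21 and Zfp683 fell short. Tcf7 had 113 CPM against 135 CPM, a ratio of 0.839 (0.585 to 1.21).

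Among all 713 CD3 cells of that library, CD8 cells included, 165 carried Tyrobp or Fcer1g. In them Maf had 109 CPM against 340 CPM in those without, 3.13-fold lower (2.16 to 4.67), Bcl11b 105.2 CPM against 250 CPM, 2.38-fold lower (1.62 to 3.60), and Zbtb16 13.6 CPM against 43.4 CPM, 3.20-fold lower (1.14 to 12.4). Runx3 had 309 CPM against 165 CPM, a ratio of 1.87 (1.42 to 2.47). These 3 lower genes of 9 stand beside 11.7% of 5602 genes (3.11% higher, 8.64% lower). The proliferation markers summed to 753 CPM in cells with an adaptor UMI against 275 CPM in those without, and their part was not tested.

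The 26 CD3-negative adaptor cells were set over all 713 CD3 cells. Tcf7 had 265 CPM against 112 CPM, 2.36-fold higher (1.25 to 4.11), Tox 114 CPM against 45.5 CPM, 2.50-fold higher (0.874 to 5.84), and Bcl11b 94.7 CPM against 211 CPM, 2.23-fold lower (0.940 to 6.92). These are 3 of 9 genes, beside 21.3% of 5792 genes (13.1% higher, 8.2% lower), from 14, 6 and 5 UMIs. Of 9 T cell markers 4 had a UMI in these cells (208 CPM in sum), with Cd8a, Cd8b1 and the CD3 genes at 0 by definition. The proliferation markers summed to 1382 CPM, against 433 CPM in CD8-negative CD3 cells and 301 CPM in CD8 cells, and their part was not tested. The Tcf7 direction was lost in other choices of cells: its log2 ratio was -0.048 with doublets and high-mitochondrial cells removed and -0.081 with clusters built on the 10 genes as well.

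Lymphocytes of the LSM gate over those of the CD122+CD49a+ gate had 4 of 9 genes past 2-fold, all lower, beside 33% of 6250 genes (6.42% higher, 26.6% lower), with a median log2 ratio of all genes at -0.31. Tbx21 had 26.1 CPM against 123 CPM, 4.74-fold lower (1.98 to 14.8), Tox 5.21 CPM against 47.8 CPM, 9.18-fold lower (1.58 to 369), Zbtb16 5.21 CPM against 34.8 CPM, 6.67-fold lower (1.13 to 270), and Maf 104 CPM against 280 CPM, 2.69-fold lower (1.71 to 4.46). The Maf direction turned with at least 1000 genes per cell, where its log2 ratio was 0.29 over 25 LSM and 49 CD122+CD49a+ lymphocytes. Runx3 (1.03, 0.716 to 1.44) and Gata3 (0.940, 0.518 to 1.60) had ratios near 1. CD8 cells were 49 of 82 LSM lymphocytes and 126 of 759 CD122+CD49a+ lymphocytes, so classes were also set side by side.

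Within CD8-negative CD3 cells, LSM over CD122+CD49a+, Maf had a ratio of 0.679 (0.408 to 1.07) and was no longer past 2-fold. Of the ranked genes, Tnfrsf4 was most above (320 CPM against 6.89 CPM). Il2rb, which encodes the CD122 of the gate, was most below (11.4 CPM against 571 CPM). Foxp3, too sparse to compare, had 8 UMIs in all LSM lymphocytes. It had 0 in the CD8-negative CD3 and CD8 cells of the CD122+CD49a+ library. Of 16 other lymphocyte transcription factors, 4 were higher in LSM cells (Ikzf2, Batf, Klf2 and Zeb2) and 6 lower, beside 8.15% and 25.5% of all genes. Ikzf2 had 514 CPM against 161 CPM. Whether these classes hold the same kinds of T cell was not tested. Tbx21 was at 0 against 130 CPM, at least 3.79-fold lower, and Runx3 at 80.0 CPM against 180 CPM, 2.26-fold lower (1.07 to 5.70). With Zbtb16, Tox and Zfp683, each at 1 UMI in LSM cells, 5 of 9 genes were past 2-fold, beside 33.6% of 5265 genes (8.15% higher, 25.5% lower). Within CD8 cells Tcf7 had 38.7 CPM against 127 CPM, 3.29-fold lower (1.15 to 12.9), and Tbx21 48.3 CPM against 108 CPM, 2.24-fold lower (0.833 to 7.54), 2 of 4 genes beside 21.5% of 1778 (11% higher, 10.6% lower). Both reached the minimum through CD122+CD49a+ cells, with 4 and 5 UMIs in LSM cells. Runx3 had 319 CPM against 310 CPM there, a ratio of 1.03 (0.655 to 1.58).

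Zbtb16 and Maf were then set against Eomes and Tcf7 cell by cell. Of the 759 CD122+CD49a+ lymphocytes, 184 had a UMI of Zbtb16 or Maf alone, 90 of Eomes or Tcf7 alone, 23 of both sets and 462 of neither. Eomes or Tcf7 was found in 11.1% (7.18 to 16.2) of the 207 cells with Zbtb16 or Maf, and in 16.3% (13.3 to 19.7) of the 552 without. Thinned to 1000 UMIs the shares were 6.72% and 12%. Within the larger cluster alone they were 10.8% (6.69 to 16.1) of 186 cells and 14.3% (10.4 to 19.0) of 279. The intervals of each unthinned pair overlap. Overlap is no test of a difference, and no conclusion is drawn from these shares.

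By gene, Tcf7 was found in 1 of 35 Zbtb16 cells (2.86%, 0.0723 to 14.9) and in 14.6% (106 of 724) of the others, and in the larger cluster in 1 of 35 and in 13.7% (59 of 430). Thinned to 1000 UMIs, the lymphocytes had Tcf7 in 1 of 18 Zbtb16 cells (5.56%, 0.141 to 27.3) and in 10.2% (7.85 to 12.9) of the others, with intervals that overlap. Maf cells carried Tcf7 in 11.96% (22 of 184), close to the 14.8% of cells without Maf. Eomes was found in 0 of 184 Maf cells and in 9 of 575 others, and in 0 of 35 Zbtb16 cells. Maf itself was found in 34.3% (19.1 to 52.2) of Zbtb16 cells and in 23.8% of the rest. Within the larger cluster those shares were 34.3% and 35.1%.

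Other partners were recorded in the same cells. Gata3 was found in 28.6% (14.6 to 46.3) of Zbtb16 cells against 11.2% (8.35 to 14.5) of the others in the larger cluster. When thinned to 1000 UMIs, all lymphocytes together had Gata3 in 2 of 18 Zbtb16 cells (11.1%, 1.38 to 34.7) and in 8.81% (6.65 to 11.4) of the others, with intervals that overlap. Tox was found in 0 of 35 Zbtb16 cells, which allows up to 8.57%, against 6.74% of the others there. Tox was found in 13.1% (7.34 to 21) of Tcf7 cells and in 5.21% of cells without Tcf7, and in the larger cluster in 11.7% against 5.43%. Thinned, those shares over all lymphocytes were 9.84% (3.70 to 20.2) and 3.66% (2.25 to 5.59), with intervals that overlap. Runx3 was found in 15.8% (10.8 to 21.8) of Maf cells and in 25.6% (22 to 29.3) of the rest, but in 14.7% against 15.6% within the larger cluster. Of the 9 Eomes cells 5 had Runx3, 3 had Tcf7 and 3 had Tox.

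**Figure D4:**
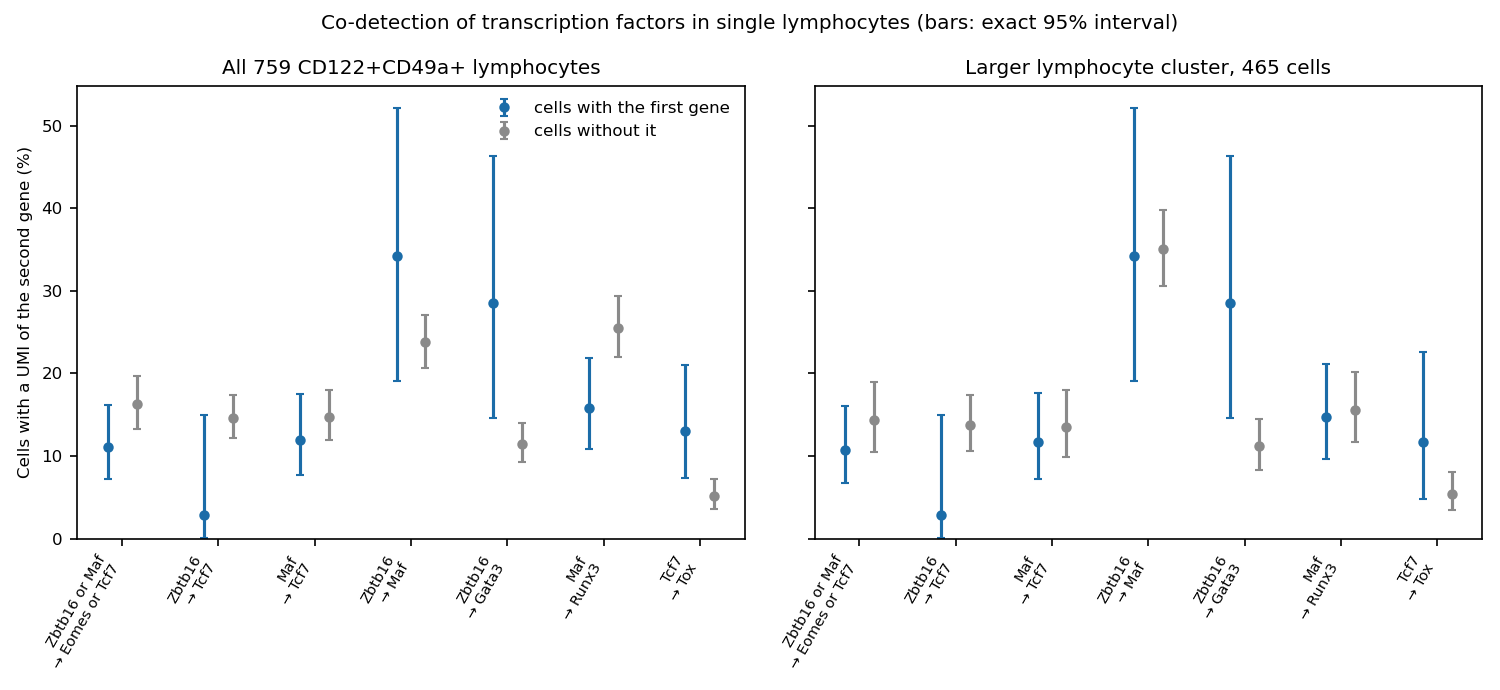
Share of cells (y axis, percent) with a UMI of the second gene among cells with the first gene (blue) and without it (grey), for all 759 CD122+CD49a+ lymphocytes (left) and the 465 cells of the larger cluster (right), with exact 95% intervals. Tcf7 is found in 2.86% of Zbtb16 cells against 14.6% of the others (5.56% against 10.2% when thinned), and the gap of Runx3 between Maf cells and others (15.8% against 25.6%) narrows to 14.7% against 15.6% within the larger cluster.

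The 184 cells with Zbtb16 or Maf alone held 280 Maf and 39 Zbtb16 UMIs. The 90 cells with Eomes or Tcf7 alone held 113 Tcf7 and 16 Eomes UMIs. The split is thus mainly one of Maf against Tcf7, and its values belong to neither Zbtb16 nor Eomes alone. The Zbtb16 or Maf cells lay in the larger cluster in 90.2% of cases, and 91.8% (86.9 to 95.4) were CD8-negative CD3 cells. The 90 cells with Eomes or Tcf7 alone lay in the larger cluster in 44.4%, the smaller in 47.8% and the cycling cluster in 7.78%, and 21.1% (13.2 to 31.0) were CD8 cells. Of the 6 genes the split did not use, Tox was 2.13-fold lower in Zbtb16 or Maf cells (0.930 to 5.09), with 41.5 CPM against 88.6 CPM. It was the 1 gene of 5 past 2-fold, beside 14.4% of 3025 genes (9.95% higher, 4.46% lower), and was not past it without the cycling cluster. Bcl11b had 268 CPM against 144 CPM, a ratio of 1.86 (1.17 to 3.04), and Gata3 136 CPM against 83.1 CPM, a ratio of 1.64 (0.873 to 3.21). Tbx21 had 128 CPM against 105.3 CPM (1.22, 0.676 to 2.26), and Runx3 106 CPM against 172 CPM (0.615, 0.356 to 1.06).

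The genes most above in Zbtb16 or Maf cells were Icos, Mmp9, Atp8a2, Itga1, Serpina3f, Psd4, Dusp6 and Dcp1b. Icos, a co-stimulatory receptor of T helper and NKT cells, had 106 CPM against 11.1 CPM, 9.54-fold (2.41 to 82.6). Itga1, which encodes the CD49a of the gate, had 125 CPM against 22.2 CPM, 5.62-fold (2.0 to 21.8). Those most below were Cd8b1, Klra7, 2810417H13Rik, Ccl4, Klra1, Birc5, Lmnb1 and Fcer1g. Klra7, an inhibitory Ly49 receptor of NK cells, had 15.1 CPM against 227 CPM, 15-fold lower (5.45 to 57.8). The proliferation markers, Birc5 among them, summed to 351 CPM in Zbtb16 or Maf cells and 1108 CPM in Eomes or Tcf7 cells, and their part was not tested.

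By list, with 9.95% of all genes higher and 4.46% lower, 3 of 7 PLZF-linked genes were higher (Icos, Il4 and Klrb1c) and 0 lower, median log2 ratio 0.89 against 0.12 for all genes. Il4 had 132 CPM against 49.9 CPM, 2.65-fold (1.25 to 6.27). Of 5 TCF1-linked genes 0 were higher and 2 lower (Klf2 and Ly6c2), median -0.68. Of 14 other transcription factors, 3 were higher (Id2, Rora and Runx1) and 2 lower (Ikzf2 and Klf2), median 0.57. Id2, which opposes E proteins in all ILCs, had 1114 CPM against 476 CPM, 2.34-fold (1.83 to 3.01), and Rora, a factor of ILC2, 143 CPM against 44.3 CPM, 3.24-fold (1.49 to 8.03). Of 7 T-box linked genes 1 was higher (Ifng) and 1 lower (Ccl5), and of 5 residency genes 2 were higher (Itga1 and P2rx7). In LSM lymphocytes 10 cells had Maf or Zbtb16 alone, all CD8-negative CD3 cells, and 9 had Tcf7 alone, 5 of them CD8-negative CD3 cells and 4 CD8 cells.

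The Cd34 progenitor-like LSM cells were set over the 2326 other non-lymphocyte LSM cells. Tox had 28.2 CPM against 0.406 CPM, 69.3-fold higher (28.8 to 218), Gata3 6.50 CPM against 0, at least 26.7-fold higher, Tcf7 12.2 CPM against 1.38 CPM, 8.82-fold higher (4.95 to 16.4), and Runx3 203 CPM against 55.8 CPM, 3.64-fold higher (3.28 to 4.04). Maf (1.93, 1.30 to 2.83) and Zbtb16 (0.833, 0.203 to 2.58) were not past 2-fold. These 4 of 6 genes stand beside 31.6% of 11001 genes (20% higher, 11.5% lower), and with the class rule as first written, which counts the larger Cd34 cluster as lymphocytes, only 1 gene was past 2-fold. Thinned to 1000 UMIs, Tox was found in 3.32% of progenitor-like cells against 0.0866% of the others, Tcf7 in 1.21% against 0.216% and Runx3 in 20.4% against 5.45%. Gata3 was then found in 0.453% (0.0936 to 1.32) against 0 of 2310 cells (0 to 0.160%), with intervals that overlap. The median log2 ratio of all genes was 0.30, and -0.06 with TMM scaling.

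The remaining factors were scarce in progenitor-like cells. Tbx21, Eomes and Zfp683 had 0 UMIs in 666 cells, which allows up to 0.450% of cells. Over LSM lymphocytes, the progenitor-like cells had Bcl11b 125-fold lower (43.4 to 493), Gata3 12.8-fold lower (6.37 to 25.2), Maf 8.75-fold lower (4.88 to 15.2) and Tcf7 5.13-fold lower (2.47 to 9.86). Tox was 5.41-fold higher (0.949 to 216), and Runx3 had a ratio of 0.976 (0.710 to 1.38). These 5 of 6 genes stand beside 27.8% of 8780 genes (17.8% higher, 9.99% lower). Among the other lymphocyte transcription factors, progenitor-like cells had 6 of 21 higher than the other LSM cells (Rora, Satb1, Ikzf2, Ets1, Klf2 and Stat4) and 7 lower. In that contrast 20% of 11001 genes were higher and 11.5% lower. Satb1, a chromatin organiser of early lymphoid cells, had 96.9 CPM against 12.6 CPM, 7.69-fold higher (6.36 to 9.35), and Id2 had 93.7 CPM against 411 CPM, 4.39-fold lower (3.94 to 4.91).

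Tcf7 in progenitor-like cells came from few cells with several UMIs each. Its 45 UMIs lay in 15 of 666 cells, all in the non-cycling cluster, with 1 to 9 UMIs per cell (median 2), and 12 of the 15 had 2 or more. These cells were singled out after their values were seen. Gata3 was found in 4 of the 15 (26.7%, 7.79 to 55.1) and in 18 of the other 651 (2.76%, 1.65 to 4.33). Tox was found in 6 of 15 (40%, 16.3 to 67.7) against 13.1% (10.6 to 15.9), and Zbtb16 in 2 of 15 (13.3%) against 1 of 651 (0.154%). Runx3 was found in 14 of 15 (93.3%) against 57.1%, with 570 CPM against 195 CPM.

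Il7r, the interleukin-7 receptor of lymphoid precursors, was found in 11 of the 15 Tcf7 progenitor-like cells (73.3%, 44.9 to 92.2) against 20.9% (17.8 to 24.2) of the others, with 380 CPM against 69.0 CPM. No CD3 UMI was found in the 15 cells, 1 of 9 T cell markers had any UMI (Lat, in 1 cell), and Tbx21, Eomes, Zfp683 and Bcl11b were at 0. Of the other 6 lymphoid progenitor markers, Satb1 was found in 73.3% against 35.8%, Dntt in 46.7% against 34.1%, Flt3, a cytokine receptor of early progenitors, in 60% against 48.8%, and Cd34 in 60% against 61.4%. Notch1 was lower in share, 26.7% (7.79 to 55.1) against 45.3% (41.4 to 49.2), and in level, 83.2 CPM against 151 CPM, and Rag1 was at 0 of 15 against 0.768%. Of the ILC precursor markers beside Il7r, Il18r1, Pdcd1 and Arg1 were at 0 of 15, against 3.07%, 1.54% and 0% of the others, Cd7 was found in 60% against 55.6% and Itgb7 in 53.3% against 41.2%. The median depth was 5618 UMIs in the 15 cells and 4884 in the others. Cells were also thinned to 3000 UMIs and Tcf7 was called again on the thinned counts, which gave 13 cells with Tcf7 and 620 without. A Tcf7 cell that lost its Tcf7 UMIs in thinning counts among the 620. Tox was then found in 30.8% (9.09 to 61.4) against 7.90% (5.90 to 10.3) and Gata3 in 15.4% (1.92 to 45.4) against 1.77% (0.889 to 3.15), with intervals that overlap. Those of Il7r, 53.8% (25.1 to 80.8) against 13.5% (10.95 to 16.5), and of Runx3, 92.3% (63.97 to 99.8) against 40.2% (36.3 to 44.1), stayed apart.

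**Figure D5:**
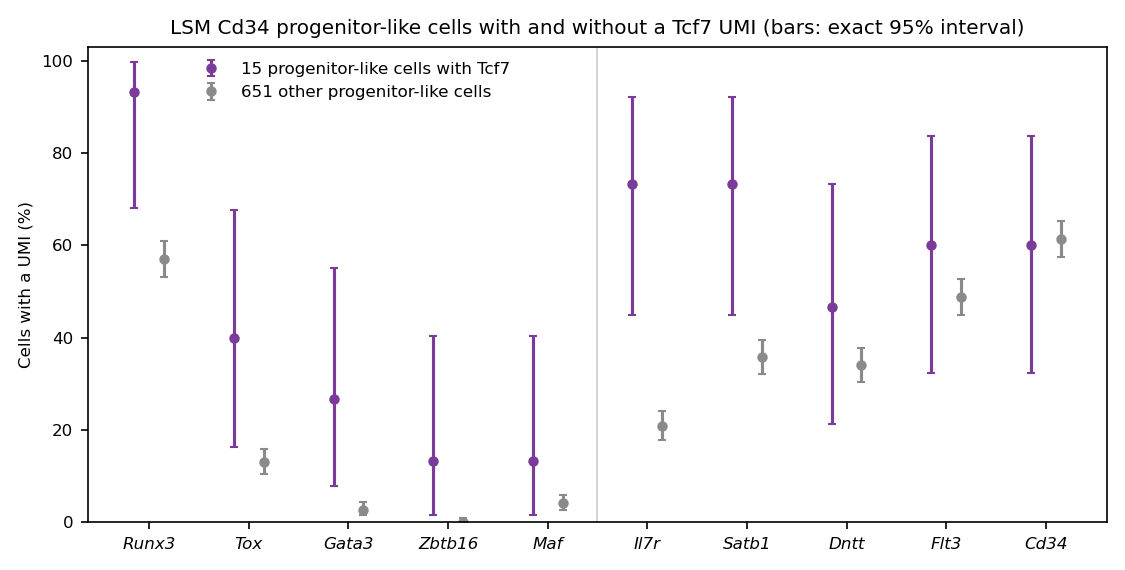
Share of LSM Cd34 progenitor-like cells (y axis, percent) with a UMI of each gene, for the 15 cells with Tcf7 (purple) and the 651 without (grey), with exact 95% intervals; the line divides transcription factors from other genes. Gata3 (26.7% against 2.76%) and Il7r (73.3% against 20.9%) have intervals that do not overlap at full depth, and those of Cd34 (60% against 61.4%) overlap. At 3000 UMIs, with Tcf7 called again after thinning, those of Gata3 (15.4% against 1.77%) overlap too.

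Across the 20 clusters of both libraries, 6815 protein-coding genes with at least 50 CPM in a cluster were ranked by their Pearson correlation with each of the 10 on log2(CPM + 10). The clusters share libraries and depth, and the values are a description with n = 20. Most of the clusters are not lymphocyte clusters, so a high r can reflect presence in lymphocytes and absence elsewhere. Values for Eomes rest on 16 UMIs in 9 cells. Closest to Tbx21 were Zap70 (r = 0.990), Itga1 and Abcb1a; to Eomes, Ncr1 (0.976), Gm156 and Gzmc. Closest to Runx3 were Lck (0.798), Klk8 and Pik3r1; to Zbtb16, Tmc6 (0.825), Zfp943 and Smad3; to Maf, Slc28a2 (0.921), Mylip and Pydc3. Gata3 was closest to Bcl11b (0.984), Cd5 and Cd6, and Bcl11b to Cxcr6 (0.997), Cd3e and Sh2d2a. Tcf7 was closest to Xcl1 (0.949), Sh2d2a and Cd5, Tox to Xcl1 (0.919), F2r and Pear1, and Zfp683 to Ehd3 (0.986), Lef1 and Abcb9. Among the 10 genes themselves, Tbx21 and Bcl11b had r = 0.961, Zbtb16 and Maf 0.495, and Tcf7 and Eomes 0.676. Across the 2 sets, Tcf7 and Maf had 0.587, Zbtb16 and Tcf7 0.261, Eomes and Maf 0.246, and Zbtb16 and Eomes -0.104. Tcf7 and Maf were thus closer than Zbtb16 and Maf.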

How the data were processed

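The count matrices hold whole-number UMI counts per gene and barcode, made by the authors and deposited for each library. The software version in the headers is 3.0.1, per the file headers, and STAR, Seurat 2.3.0 and GRCm38 are named in the submitters' processing notes. No source used here states whether counting was stranded. The LSM library held 3133 barcodes and 16226070 UMIs, the CD122+CD49a+ library 1655 barcodes and 2632303 UMIs. Barcodes under 500 genes were left out (59 LSM, 398 CD122+CD49a+).

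Clusters came from scanpy 1.11.5 and leidenalg 0.10.2 (2000 variable genes without the 10 factors, 20 components, 15 neighbours, resolution 0.6). A cluster counted as Cd34 progenitor-like where at least 25% of cells had Cd34, and otherwise as lymphocytes where at least 50% had a lymphocyte gene. This order was set after the data were seen, because the rule as first written took the larger Cd34 cluster as lymphocytes. Scrublet marked 0.319% of LSM and 0.242% of CD122+CD49a+ barcodes, too few to be used as called, so doublets stayed in and their removal at a preset rate was an alternative. Clusters and classes were rebuilt here, as no annotation of the authors was used.

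UMIs were summed per class and scaled to CPM. Genes with at least 20 UMIs in both classes together were compared, and a ratio past 2-fold was counted. A count of 0 was set to 3 UMIs for bounds. Intervals were exact (Poisson, Clopper-Pearson, conditional binomial; scipy 1.17.1), and TMM factors came from edgeR 4.0.16, used for scaling only. The pipeline was tested on simulated data. Named genes were the 10 factors, the 8 highest and 8 lowest ratios with at least 30 UMIs in all and 100 CPM in a class, members of 5 gene lists, and the 3 most alike genes. The 10 factors and the lists were chosen with earlier results of these data known. Gene positions are from GENCODE M21 (27645 of 27998 IDs matched) and promoter windows from RefSeq on GRCm38.p6, with rows for 6 of the 10 genes. Zbtb16, Maf, Tox and Zfp683 had no window.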

Additional observations from a re-analysis of the deposited data

Results flagged for a closer look

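Barcodes below the gene minimum, which enter no comparison, also held these transcripts. The 398 such CD122+CD49a+ barcodes (median 666 UMIs, 47.0% with a CD3 UMI) held 72 Maf, 62 Runx3, 58 Bcl11b, 28 Tcf7, 26 Tbx21, 23 Gata3, 17 Tox, 12 Zbtb16 and 4 Zfp683 UMIs. The 59 such LSM barcodes held 6 Runx3 UMIs. Each count is above the 3 counts that a count of 0 allows.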

How the results depend on the processing

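No paired analysis was possible because each gate has 1 library. Over all alternatives, counts and shares stayed within 1.5 times or their interval in 73 values and moved in 30, and values of single genes did so in 501, moved in 34 and reversed in 3. The reversed log2 ratios were Tcf7 in CD3-negative adaptor over CD3 cells, -0.048 with doublets and cells over 10% mitochondrial UMIs removed and -0.081 with clusters built on the 10 genes too, and Maf in LSM over CD122+CD49a+ lymphocytes, 0.29 at 1000 genes or more, a minimum that left 25 LSM and 49 CD122+CD49a+ lymphocytes. At that minimum no gene was past 2-fold (0) in CD8-negative CD3 over CD8 cells (main 2), CD3-negative adaptor over CD3 cells (main 3), LSM over CD122+CD49a+ lymphocytes (main 4) or Zbtb16 or Maf over Eomes or Tcf7 cells (main 1). The share of all genes at that minimum is not given here, so a lost call cannot be told from a gene too sparse to compare. The shares of CD122+CD49a+ lymphocytes were then 0 for Eomes (main 1.19%), 0 for Zbtb16 (main 4.61%) and 12.2% for Maf (main 24.2%).

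With at least 50 UMIs per gene, counts past 2-fold were 1 in CD8-negative CD3 over CD8 cells of the CD122+CD49a+ library, 3 between clusters (main 5), 2 in LSM over CD122+CD49a+ CD8-negative CD3 cells (main 5), 0 in their CD8 cells (main 2), 3 in progenitor-like cells over LSM lymphocytes (main 5) and 0 between the Zbtb16 or Maf and Eomes or Tcf7 cells. With no minimum, 2 genes were past 2-fold between these sets. With 2 UMIs of the defining genes required, 1 gene was past 2-fold in CD8-negative CD3 over CD8 cells and 2 between the sets, which had 0 by averaged per-cell CPM and 0 without the cycling cluster. TMM scaling left 3 between clusters. The class rule as first written gave 7 for LSM over CD122+CD49a+ lymphocytes and 1 for progenitor-like over other LSM cells. Under that rule the LSM lymphocytes include the larger Cd34 cluster (602 cells), so the 7 is not comparable with the main value. CD8 cells alone gave 2 between the gates. The share of all genes past 2-fold under these settings is not given here, so these counts are a description and no result about the 10 genes. The cause was not tested beyond the fewer genes or cells these settings leave.

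Thinned to 700 UMIs, CD122+CD49a+ lymphocytes had Tcf7 in 7.66% (main 14.1%, and 16.7% at 1500 UMIs) and Maf in 15.7%. Eomes or Tcf7 was then found in 6.57% of Zbtb16 or Maf cells (main 11.1%, and 20.7% at 1500 UMIs) and in 8.39% of the others (main 16.3%). Depth limits every share of cells given, and the values of Eomes, Zbtb16 and Zfp683 rest on few UMIs.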
